A study of Mus musculus with 10 samples.

Results

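The genes described here mark the 2 large glial cell types of the brain. Of 50 genes listed, 24 are known as genes of astrocytes and 26 as genes of oligodendrocytes, the cells that make myelin. A gene was taken as present where a probe carried exactly its symbol and no other, with Sept4 also accepted as Septin4. This gave 38 genes with 58 probes, of the 9930 genes with 14030 such probes on the array. They were 21 astrocyte genes with 33 probes and 17 oligodendrocyte genes with 25 probes. No probe carried the symbol or the Entrez identifier of the other 12, which were Gjb6, Slc4a4, Prdx6, Mog, Ugt8a, Aspa, Fa2h, Ermn, Opalin, Sox10, Nkx2-2 and Myrf, so that Mog, Opalin and the regulators Sox10 and Myrf were not measured. A probe was tested where at least 4 mice had a value on each of their arrays, which left 46 probes of 32 genes (26 probes of 18 astrocyte genes and 20 probes of 14 oligodendrocyte genes).

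Astrocytes clear glutamate from the synapse with the transporters Slc1a2 and Slc1a3, turn it into glutamine with glutamine synthetase (Glul), hold the water channel Aqp4 in their endfeet on blood vessels, and are coupled by connexins. Oligodendrocytes wrap axons in myelin, a stack of membrane held together by proteins such as Mbp, Mobp and Cldn11, while Cnp and Mag lie in its non-compact and innermost layers. Several listed genes are also transcribed in other brain cells, such as Apoe, Cst3 and the metallothioneins of the astrocyte list. The lists therefore mark cell types as groups rather than gene by gene.

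Brain RNA came from 5 male Cin85-/- mice aged 15 weeks, and the only comparison sample was a pool of brain RNA from male wildtype (wt) mice of that age. Cin85, the product of Sh3kbp1, is an adaptor protein that binds Cbl ubiquitin ligases and acts in receptor uptake. Each mouse was hybridised on 2 arrays against the pool, with the mutant RNA in Cy5 on 1 array and in Cy3 on the other, which gave 10 arrays. For the pool, 5 mice are named in the design text and in the list of animals, whereas the labelling protocol speaks of 6. The labels name no allele, promoter, Cre line or strain background beyond Cin85-/- and no brain region, and no wildtype mouse was hybridised alone. The source name of the mutant samples carries an abbreviation, Kdn, that the labels leave unexplained. Since every value is a ratio of brain to brain and no level was available, the tissue label could not be checked from marker levels. In whole tissue, fewer cells of a type and less RNA per cell cannot be told apart.

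The values were deposited log2 ratios. The sources used here do not say whether the mutant is the numerator on all arrays, or Cy5 on all arrays. Each probe was therefore summarised in 2 ways. The pair mean, which is the mean of the 2 arrays of a mouse, is the log2 ratio of mutant to pool if every column was deposited in that direction. The dye term is the Cy5 array of a mouse minus its Cy3 array (named by the dye of the mutant RNA), divided by 2, and it is the difference from the pool if every column runs Cy5 over Cy3. Under the first reading the dye term is dye bias, and under the second the pair mean is. Signs below follow the deposited scale, and no sign says which RNA was more abundant.

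The array of mouse 3 with the mutant in Cy3 stood apart. It held 16816 values against 18773 to 19424 on the others, and the interquartile range of its log2 ratios was 1.38 against 0.45 to 0.98. Over all probes its Spearman correlation with the other 4 Cy3 arrays was -0.081 to 0.014, while these 4 correlated with each other at 0.24 to 0.37 and the Cy5 arrays with each other at 0.17 to 0.41. Its correlation with the Cy5 arrays over all probes was also near 0, at 0.0003 to 0.069. The Cy5 arrays and the other 4 Cy3 arrays correlated at -0.42 to -0.14 over all probes. Over the tested member probes alone, the mouse 3 Cy3 array correlated at -0.45 to -0.15 with the other Cy3 arrays. With the Cy5 arrays it correlated at 0.25 to 0.40 over these probes. The pair mean of 12 of 46 member probes changed sign when mouse 3 was left out, and their values without it are given after the members. The gene targeted in the mice, Sh3kbp1, had a pair mean of 0.0082 ± 0.14 (SD, n = 5 mice) on probe 8640 and a dye term of 0.12. Its arrays read 0.24, 0.10, -0.010, 0.20 and 0.092 in Cy5 and -0.20, -0.089, -0.31, 0.24 and -0.18 in Cy3, and its second probe, 4508, had values on 4 arrays only. The value does not check the labels, because the sources used here do not say which part of the transcript the probe covers.

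The pair means of the astrocyte and the oligodendrocyte genes lay around a log2 ratio of 0, and no member passed the test over mice. The pair mean is the difference from the pool under the first reading only, and the dye terms, which are that difference under the second, lay further from 0 and are given after the members. Of 46 member probes, 0 had an adjusted p under 0.05 in the limma test of the pair mean, as did 0 of all 16939 tested probes (0%). Without adjustment, 2 of 46 member probes had p under 0.05, against 3.73% of all probes, with 2 positive (1.94% of all probes) and 0 negative (1.79%). They were probe 19121 of Glul, an astrocyte gene, and probe 7817 of Cnp, an oligodendrocyte gene. Of the 43 member probes with values on all 10 arrays, 4 had the same sign in all 5 mice, against 7.01% of all such probes. Cnp and Glul probe 19121 were positive (3.44% of all probes), and Mbp probe 16330 and Septin4 probe 16647 were negative (3.57%). The 95% interval of the pair mean rested on 5 mice for 43 member probes and on 4 mice for 3. It stayed inside 1.5-fold of no difference for 41 of 46 member probes, against 60.7% of all probes. These were 24 of 26 astrocyte and 17 of 20 oligodendrocyte probes. The interval stayed inside 2-fold for 45 of 46, against 85.8%.

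**Figure D1:**
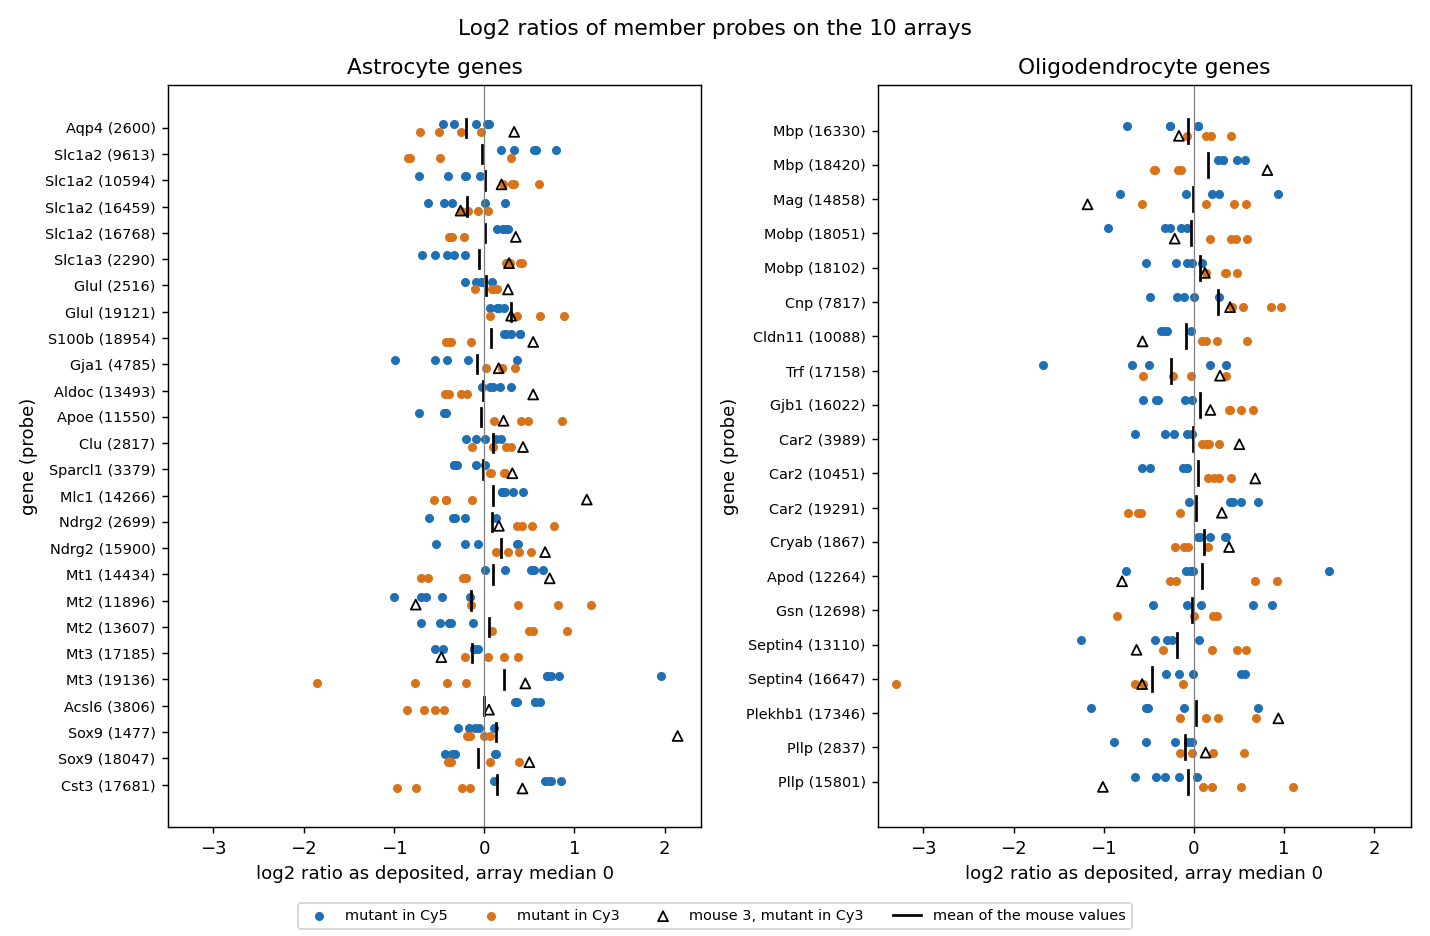
Log2 ratio (horizontal axis, as deposited with each array centred on its median) of each tested probe of the astrocyte genes (left) and oligodendrocyte genes (right). Blue points are the 5 arrays with the mutant in Cy5, orange points the arrays with it in Cy3, open triangles the Cy3 array of mouse 3, and black bars the mean over mice. Most bars lie near 0, while blue and orange points often lie on opposite sides of it.

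The glutamate cycle of astrocytes was covered by 7 tested probes. Glul, the enzyme that makes glutamine from glutamate and ammonia, had probe 19121 positive on every array. Its log2 ratios for mice 1 to 5 were 0.17, 0.061, 0.14, 0.22 and 0.16 with the mutant in Cy5 and 0.89, 0.065, 0.30, 0.37 and 0.62 with it in Cy3. The dye orientations overlapped. The pair mean was 0.30 ± 0.17 (SD, n = 5 mice), with a 95% interval of 0.047 to 0.55, a limma p of 0.0272 and an adjusted p of 0.911. The second Glul probe, 2516, read -0.033, 0.083, -0.094, -0.014 and -0.21 in Cy5 and 0.14, 0.085, 0.27, -0.10 and 0.10 in Cy3. Its pair mean of 0.023 ± 0.072 (SD, n = 5 mice) was close to 0, so that the larger value of Glul rested on a single probe.

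Slc1a3, the glutamate transporter GLAST, was negative on all 5 Cy5 arrays, at -0.33, -0.22, -0.55, -0.41 and -0.69, and positive on all 5 Cy3 arrays, at 0.24, 0.40, 0.28, 0.29 and 0.42. The 2 orientations did not overlap and cancelled in the pair mean of -0.056 ± 0.093 (SD, n = 5 mice), while the dye term was -0.38 (limma adjusted p = 0.102). Slc1a2, the main glutamate transporter of the forebrain, had 4 tested probes that did not share a pattern. Probe 10594 read -0.046, -0.72, -0.21, -0.40 and -0.20 in Cy5 and 0.33, 0.21, 0.19, 0.61 and 0.31 in Cy3, with no overlap and the sign order of Slc1a3. Probe 16768 went the other way, at 0.27, 0.20, 0.21, 0.23 and 0.14 in Cy5 and -0.38, -0.35, 0.35, -0.37 and -0.23 in Cy3, where only the mouse 3 array was positive. Probe 9613, with 9 arrays, read 0.19, 0.33, 0.80, 0.58 and 0.55 in Cy5 and 0.30 in mouse 1, -0.49 in mouse 2, -0.85 in mouse 4 and -0.83 in mouse 5 in Cy3. This is the order of probe 16768. Probe 16459 read 0.012, -0.62, 0.23, -0.36 and -0.44 in Cy5 and 0.039, -0.25, -0.26, -0.18 and -0.065 in Cy3, and here the orientations overlapped. The pair means of the 4 probes were -0.027, 0.0078, -0.19 and 0.0064 for probes 9613, 10594, 16459 and 16768, with unadjusted limma p from 0.129 to 0.951.

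Aqp4, the water channel of astrocyte endfeet, had a negative pair mean in 4 of 5 mice. The Cy5 arrays gave 0.033, -0.091, -0.33, 0.051 and -0.46 and the Cy3 arrays -0.26, -0.50, 0.33, -0.71 and -0.031, and the orientations overlapped, with the positive Cy3 value on the mouse 3 array. The pair mean was -0.20 ± 0.14 (SD, n = 5 mice), with a 95% interval of -0.43 to 0.038 and a limma p of 0.0870 before and 0.911 after adjustment. In a fit of the other 9 arrays, with the dye as covariate and a random block for the mouse, the value was -0.27. Its limma p was 0.0159 before and 0.864 after adjustment. This fit was chosen after seeing the data. Its block correlation was -0.076, so that it treats the arrays of a mouse as separate samples and its p cannot be set beside that over mice. In that fit 3 of 46 member probes had unadjusted p under 0.05, against 5.58% of all probes, which were those of Aqp4, Glul (19121) and Cnp, and 0 of 46 passed after adjustment, as did 0%. Mlc1, a membrane protein of the same endfeet, read 0.20, 0.32, 0.43, 0.24 and 0.20 in Cy5 and -0.56, -0.43, 1.14, -0.13 and -0.43 in Cy3. Its highest value came from the mouse 3 Cy3 array, and without mouse 3 its pair mean of 0.097 became -0.074. Gja1, the main connexin of astrocytes, read 0.36, -0.54, -0.41, -0.18 and -0.99 in Cy5 and 0.35, 0.019, 0.16, 0.20 and 0.20 in Cy3, which overlapped, and its pair mean was -0.083 ± 0.29 (SD, n = 5 mice).

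Among secreted astrocyte proteins, Apoe, the main lipid carrier of the brain, split fully between the dye orientations. It read -0.43, -0.44, -0.45, -0.73 and -0.43 in Cy5 and 0.49, 0.11, 0.22, 0.86 and 0.41 in Cy3. All Cy5 values were negative and all Cy3 values positive. The pair mean was -0.039 ± 0.098 (SD, n = 5 mice) and the dye term -0.45 (limma adjusted p = 0.102). Sparcl1, a matrix protein that promotes synapse formation, was in the same order without overlap on probe 3379, at 0.010, -0.089, -0.30, -0.34 and -0.34 in Cy5 and 0.062, 0.23, 0.31, 0.22 and 0.071 in Cy3, with a pair mean of -0.016 ± 0.081 (SD, n = 5 mice). Clu, a secreted chaperone, ranged from -0.20 to 0.18 in Cy5 and from -0.13 to 0.43 in Cy3, with a pair mean of 0.097. Cst3, an inhibitor of cysteine proteases, had the opposite order of means to Apoe, at 0.62 in Cy5 and -0.34 in Cy3. Its orientations overlapped through the mouse 3 Cy3 array alone, which read 0.425 against 0.107 for mouse 1 in Cy5.

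The metallothioneins Mt1, Mt2 and Mt3 bind zinc and copper and lie in a cluster on chromosome 8. Mt1 and Mt2 are induced by metals through the factor MTF1, which binds metal response elements, whereas Mt3 is known as the brain form with little metal induction. Their promoters are shown as background on this neighbouring family, and a link between promoter sequence and the array values was not tested. The 300 bases around each start are from RefSeq (GRCm38.p6), with the core of the metal response element in capitals, searched as TGCACNC or TGCGCNC on both strands. No 2 matches overlapped.
Mt1 (chr8:94178839-94179138, + strand): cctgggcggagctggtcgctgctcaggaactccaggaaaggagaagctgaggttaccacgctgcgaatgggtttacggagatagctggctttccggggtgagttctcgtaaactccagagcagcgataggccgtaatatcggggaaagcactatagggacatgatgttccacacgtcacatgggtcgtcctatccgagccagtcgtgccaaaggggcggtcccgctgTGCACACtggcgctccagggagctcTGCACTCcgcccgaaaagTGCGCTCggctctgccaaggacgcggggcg
Mt2 (chr8:94172368-94172667, + strand): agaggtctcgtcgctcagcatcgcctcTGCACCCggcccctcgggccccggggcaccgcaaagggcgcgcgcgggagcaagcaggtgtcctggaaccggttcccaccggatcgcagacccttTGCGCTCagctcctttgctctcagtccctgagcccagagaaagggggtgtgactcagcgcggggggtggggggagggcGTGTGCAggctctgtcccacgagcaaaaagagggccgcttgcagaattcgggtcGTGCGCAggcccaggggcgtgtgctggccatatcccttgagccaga
Mt3 (chr8:94152357-94152656, + strand): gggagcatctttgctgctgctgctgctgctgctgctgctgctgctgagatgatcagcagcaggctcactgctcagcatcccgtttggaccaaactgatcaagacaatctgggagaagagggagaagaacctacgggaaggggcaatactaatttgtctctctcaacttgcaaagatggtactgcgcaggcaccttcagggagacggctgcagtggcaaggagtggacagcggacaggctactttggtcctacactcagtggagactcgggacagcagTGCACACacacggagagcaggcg
Within the bases shown, the Mt2 promoter held 4 matches, 2 on each strand, the Mt1 promoter 3 and the Mt3 promoter 1. These counts depend on the RefSeq start used, and matches outside the bases shown were not counted. Of 32851 mouse promoters of this length, 25.7% held at least 1 match, 1.97% at least 3 and 0.517% at least 4. A match is a run of letters and no measured site.

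Mt1 read 0.23, 0.014, 0.55, 0.65 and 0.52 in Cy5 and -0.23, -0.20, 0.73, -0.71 and -0.63 in Cy3. All Cy5 values were positive, and of the Cy3 values only that of mouse 3 was. Mt2 had the opposite order on both probes. Probe 11896 read -0.65, -0.15, -0.47, -0.996 and -0.70 in Cy5 and -0.14, 0.38, -0.76, 0.82 and 1.18 in Cy3, and probe 13607 read -0.13, -0.39, -0.49, -0.37 and -0.70 in Cy5 and 0.50 in mouse 1, 0.54 in mouse 2, 0.92 in mouse 4 and 0.085 in mouse 5 in Cy3. On both Mt2 probes every Cy5 value was negative. Mt3, also known as growth inhibitory factor, had 2 tested probes that disagreed. Probe 19136 read 0.69, 0.74, 0.69, 0.84 and 1.97 in Cy5 and -0.76, -0.41, 0.46, -1.86 and -0.20 in Cy3, without overlap and with the largest SD between mice of the astrocyte probes. Probe 17185 read -0.072, -0.11, -0.11, -0.55 and -0.46 in Cy5 and 0.046, 0.38, -0.47, 0.22 and -0.21 in Cy3, which overlapped. The dye terms were 0.30 for Mt1, -0.44 and -0.45 for Mt2, and -0.13 and 0.77 for Mt3. The pair means of the 5 probes lay between -0.15 and 0.22, each smaller than its SD between mice. The Mt genes are close in sequence and the sources used here hold no probe sequences, so that binding of the cDNA of 1 gene to the probe of another was not tested.

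Sox9, a transcription factor of astrocytes, had 2 tested probes. Probe 1477 read -0.29, -0.052, -0.099, -0.17 and 0.11 in Cy5 and -0.16, 0.065, 2.15, -0.19 and 0.0030 in Cy3. The value of mouse 3 in Cy3 was far above the other 9, and without mouse 3 the pair mean of 0.14 became -0.085. Probe 18047 had a pair mean of -0.068 ± 0.29 (SD, n = 5 mice) and its highest value on the same array. Ndrg2, an astrocyte protein of the N-myc downstream regulated family, read 0.14, -0.61, -0.22, -0.35 and -0.32 in Cy5 and 0.42, 0.36, 0.16, 0.77 and 0.54 in Cy3 on probe 2699, without overlap. On probe 15900 it read -0.073, 0.38, 0.36, -0.21 and -0.54 in Cy5 and 0.13, 0.27, 0.68, 0.39 and 0.52 in Cy3, which overlapped, and the pair means were 0.089 and 0.19. Acsl6, which activates long-chain fatty acids, was positive on all Cy5 arrays, at 0.34, 0.57, 0.56, 0.37 and 0.62, and read -0.45, -0.85, 0.054, -0.55 and -0.67 in Cy3. The orientations did not overlap, and only the mouse 3 array broke the sign of the Cy3 values. Its pair mean was 0 (-0.077 without mouse 3) and its dye term 0.49, with the smallest adjusted limma p of the dye term among the members (0.0988). S100b, a calcium binding protein, and Aldoc, the brain aldolase, had pair means of 0.077 and -0.010, and both read higher in Cy5 than in Cy3 without overlap once the mouse 3 array was left out.

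Among the myelin proteins, Mbp, which holds the cytoplasmic faces of myelin together, had 2 probes of opposite order. Probe 16330 read -0.27, -0.74, 0.048, 0.042 and -0.27 in Cy5 and 0.19, 0.41, -0.17, -0.075 and 0.14 in Cy3. Its pair means of -0.040, -0.17, -0.060, -0.017 and -0.067 were negative in all 5 mice and gave the smallest spread of the list, with a mean of -0.070 ± 0.057 (SD, n = 5 mice) and a limma p of 0.445, since the test shares its estimate of the spread with all probes. Probe 18420 read 0.33, 0.26, 0.56, 0.32 and 0.48 in Cy5 and -0.45, -0.44, 0.81, -0.14 and -0.18 in Cy3, where only the mouse 3 array was positive, and its pair mean was 0.16 ± 0.31 (SD, n = 5 mice). Mobp, a basic protein of compact myelin, read -0.023, 0.094, -0.20, -0.081 and -0.53 in Cy5 and 0.34, 0.48, 0.12, 0.35 and 0.13 in Cy3 on probe 18102, without overlap. On probe 18051 it read -0.080, -0.32, -0.26, -0.15 and -0.95 in Cy5 and 0.41, 0.17, -0.21, 0.46 and 0.59 in Cy3, with overlap through the mouse 3 array alone. Their pair means were 0.068 and -0.034. Mag, the adhesion molecule of the innermost myelin layer, read -0.094, 0.20, 0.28, 0.93 and -0.83 in Cy5 and 0.57, 0.13, -1.18, 0.44 and -0.57 in Cy3. The orientations overlapped fully and the pair mean of -0.012 ± 0.56 (SD, n = 5 mice) had one of the 3 largest SDs of its list. Cldn11, the claudin of myelin tight junctions, and Pllp, a myelin proteolipid, had pair means of -0.084 for Cldn11 and of -0.10 and -0.062 for the 2 probes of Pllp. Pllp read -0.067, -0.017, -0.21, -0.53 and -0.88 in Cy5 and 0.21, -0.025, 0.13, 0.56 and -0.16 in Cy3 on probe 2837. On probe 15801 it read -0.17, -0.42, 0.037, -0.66 and -0.32 in Cy5 and 0.10, 0.20, -1.01, 1.10 and 0.52 in Cy3. Both probes overlapped between orientations.

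Cnp, a phosphodiesterase of non-compact myelin, had the smallest p of the pair mean among the members. It read -0.12, -0.49, -0.0010, 0.27 and -0.19 in Cy5 and 0.55, 0.97, 0.40, 0.42 and 0.86 in Cy3. The Cy3 values were all positive, and all lay above the Cy5 values. The pair means of mice 1 to 5 were 0.22, 0.24, 0.20, 0.35 and 0.33, which gave 0.27 ± 0.068 (SD, n = 5 mice), a 95% interval of 0.056 to 0.48, a limma p of 0.0208 and an adjusted p of 0.911. Without mouse 3 the pair mean was 0.28. The dye term of Cnp was larger in size than its pair mean, at -0.37 (limma adjusted p = 0.136), so that Cnp was positive under the first reading of the columns and negative under the second.

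Gjb1, the connexin of myelin, was negative on all Cy5 arrays, at -0.095, -0.40, -0.57, -0.42 and -0.018, and positive on all Cy3 arrays, at 0.52, 0.39, 0.18, 0.66 and 0.39. Its pair mean was 0.065 ± 0.17 (SD, n = 5 mice). Gja1 of astrocytes had the same order of means but overlapped. Car2, a carbonic anhydrase of oligodendrocytes, was negative in Cy5 and positive in Cy3 on probe 3989, at -0.081, -0.32, -0.024, -0.65 and -0.23 against 0.17, 0.28, 0.50, 0.13 and 0.091. Probe 10451 followed it closely, at -0.076, -0.12, -0.074, -0.58 and -0.49 against 0.22, 0.41, 0.68, 0.27 and 0.15. The third Car2 probe, 19291, had the opposite order, at -0.052, 0.71, 0.40, 0.43 and 0.52 against -0.62, -0.16, 0.31, -0.73 and -0.59, and here the orientations overlapped. The 3 pair means of Car2 were -0.013, 0.039 and 0.023, each smaller than its SD between mice.

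Septin4, a septin of the cytoskeleton, had the member probe with the largest SD between mice. Probe 16647 read -0.16, 0.56, -0.0060, -0.31 and 0.52 in Cy5 and -3.30, -0.66, -0.58, -0.12 and -0.56 in Cy3. Its pair mean of -0.46 ± 0.72 (SD, n = 5 mice) was drawn down by mouse 1, and without that mouse it was -0.14. Probe 13110 read -0.30, -0.24, 0.058, -1.25 and -0.43 in Cy5 and 0.20, 0.47, -0.64, -0.35 and 0.58 in Cy3, and its pair mean was -0.19 ± 0.38 (SD, n = 5 mice). Apod, a lipocalin of oligodendrocytes, read -0.086, -0.011, -0.049, 1.502 and -0.76 in Cy5 and -0.26, -0.20, -0.80, 0.68 and 0.92 in Cy3. The orientations overlapped, and the pair mean was 0.093 ± 0.58 (SD, n = 5 mice). Trf, the iron carrier transferrin, read 0.18, -0.50, -1.67, 0.35 and -0.69 in Cy5 and -0.23, -0.57, 0.29, -0.032 and 0.35 in Cy3 on probe 17158. These overlapped as well, with a pair mean of -0.25 ± 0.35 (SD, n = 5 mice) and a limma p of 0.147. The remaining tested members were Cryab, a small heat shock protein, Gsn, which severs actin filaments, and Plekhb1, with pair means of 0.11, -0.024 and 0.027.

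Leaving out mouse 3 changed the sign of the pair mean for 12 of 46 member probes. Of these, 5 were astrocyte probes, each positive with mouse 3 and negative without it. Without mouse 3 the pair mean was -0.062 for Slc1a2 (16768), -0.021 for S100b, -0.074 for Mlc1, -0.043 for Mt1 and -0.085 for Sox9 (1477). The other 7 were oligodendrocyte probes. Negative with mouse 3 and positive without it were Mag, at 0.098 without, Mobp (18051), at 0.018, Cldn11, at 0.012, and Pllp (15801), at 0.044. Car2 (10451 and 19291) and Plekhb1 went the other way, to -0.027, -0.060 and -0.020. Sign changes were not limited to mouse 3. Without mouse 1, 2, 4 or 5 the sign changed for 3, 2, 8 and 9 of the 46 probes. The share over all probes is not given here.

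The dye term set the members apart from 0 more often than the pair mean, as it did the probes of the whole array. Among the 46 member probes, 16 (of 13 genes) had an unadjusted limma p of the dye term under 0.05, against 27.6% of all probes, while 0 passed after adjustment, as did 0% of all probes. They comprised 6 positive probes (background 13.6%) and 10 negative ones (background 14%). In 16 of 43 probes the dye term had the same sign in all 5 mice, against 30.5%, with 4 positive (12.4%) and 12 negative (18%). The Cy5 and Cy3 arrays did not overlap for 12 of 43 probes, against 15.1%. Of these, Mt3 (19136) and Acsl6 were higher in Cy5 (2 probes, background 6.59%), and Slc1a2 (10594), Slc1a3, Apoe, Sparcl1, Ndrg2 (2699), Mobp (18102), Cnp, Gjb1 and Car2 (3989 and 10451) were lower (10 probes, background 8.55%). The share of all probes is itself large, and no difference between the members and the other probes was tested. Without the mouse 3 Cy3 array, the count without overlap became 24 of 43, against 31.1%, with 10 probes higher in Cy5 (17.2%) and 14 lower (13.9%). When the arrays were fitted singly with a dye coefficient and a random block for the mouse, 9 of 46 member probes passed at an adjusted p under 0.05 on 10 arrays, against 12.1%, and 23 of 46 on 9 arrays, against 25.5%. The block correlation was -0.020 and -0.076 in these fits, so that they treat the arrays of a mouse as separate samples.

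**Figure D2:**
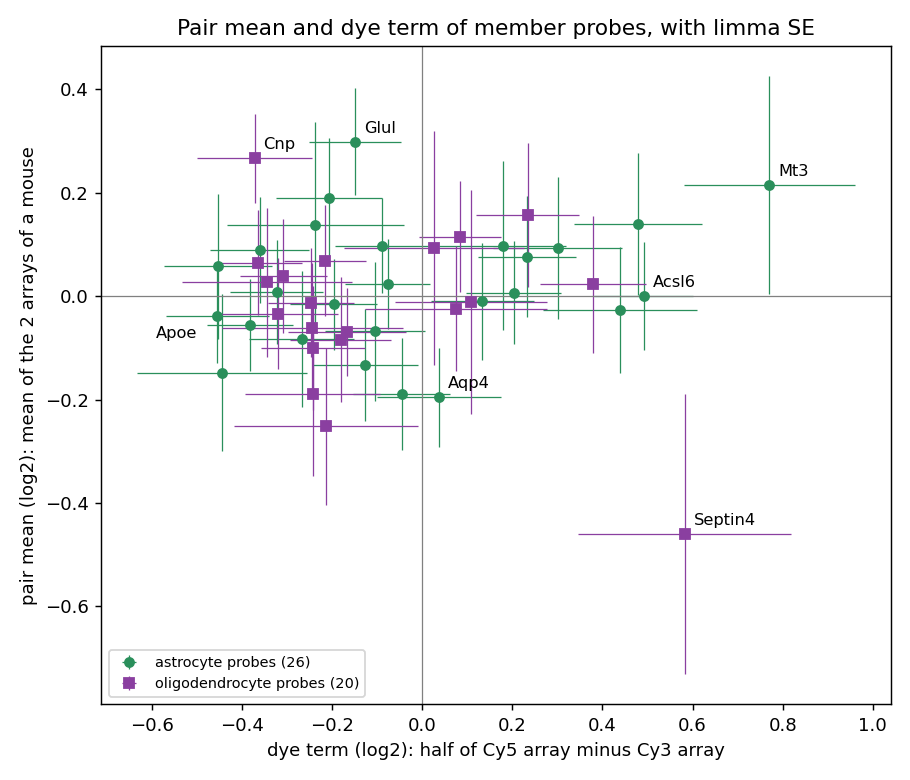
Pair mean (vertical axis, log2) against dye term (horizontal axis, log2) for the 46 tested member probes, with the limma standard error of each as bars. Green circles are astrocyte and purple squares oligodendrocyte probes, and the named probes include Cnp (pair mean 0.27, dye term -0.37) and Mt3 (dye term 0.77). The probes spread further along the dye axis than along the pair mean.

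Probes of the same gene often disagreed in the sign of the dye term. Among 11 member genes with more than 1 tested probe, the 18 pairs of probes had dye terms of the same sign in 9 (50%), against 49.9% of 3917 pairs over all genes. The pair means shared a sign in 7 of 18 (38.9%), against 51.2%. Glul, Mt2, Ndrg2, Sox9, Mobp and Pllp had a single sign of the dye term on their probes, and Slc1a2, Mt3, Mbp, Car2 and Septin4 had both. Some pairs followed each other over the arrays, with a Pearson correlation over 10 arrays of 0.94 for Car2 probes 3989 and 10451 and 0.82 for the 2 Mobp probes. Others opposed each other, with -0.49 between either of these Car2 probes and probe 19291, -0.54 for Mbp, -0.71 for Mt3 and -0.70 for Slc1a2 probes 10594 and 16768. These correlations are descriptions, since the arrays share the pool and include both dye orientations. Which transcripts the probes of a gene cover was not tested, so that a member with a single probe carries the value of that probe only.

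**Figure D3:**
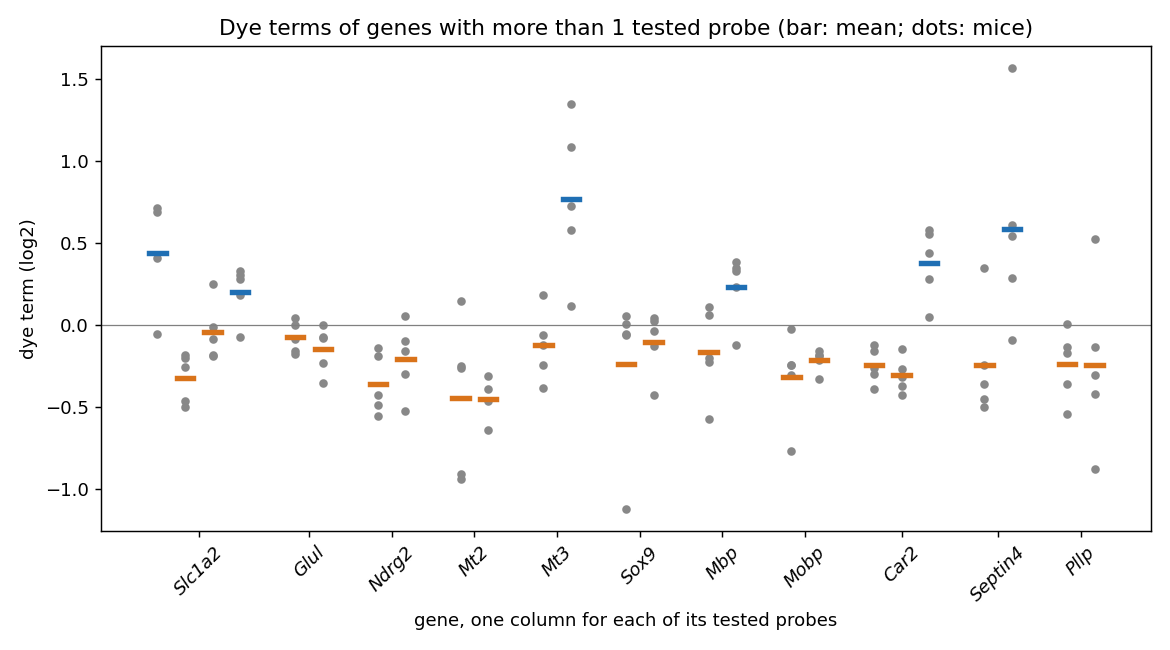
Dye term (log2) of each tested probe, one column per probe, for the 11 member genes with more than 1 tested probe. Grey points are mice, and bars are means, blue above 0 and orange below. Slc1a2, Mt3, Mbp, Car2 and Septin4 hold bars on both sides of 0.

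The median over genes set the astrocyte against the oligodendrocyte list. The median pair mean was 0.017 for the 18 tested astrocyte genes (9 positive, 8 negative and Acsl6 at 0) and 0.017 for the 14 oligodendrocyte genes (8 positive, 6 negative), against -0.0033 over all 8711 genes (4288 positive, 4420 negative). In mice 1 to 5 the astrocyte median was -0.024, 0.033, 0.16, -0.054 and -0.043 and the oligodendrocyte median -0.025, -0.035, -0.19, 0.15 and -0.032. The difference, astrocyte minus oligodendrocyte, was 0.00075, 0.068, 0.35, -0.21 and -0.011, with a mean of 0.041 ± 0.20 (SD, n = 5 mice). The largest difference came from mouse 3 and the most negative from mouse 4, and the mean lay well inside this spread. No p is given for these medians, because the members were chosen with results of these data known.

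Array by array the 2 member lists separated by dye on most arrays, while other genes of the same cell types did not follow. On the 5 Cy5 arrays the astrocyte median was 0.11, 0.024, 0.049, -0.0048 and 0.012 and the oligodendrocyte median -0.090, -0.17, -0.025, 0.13 and -0.38. The difference was 0.20, 0.19, 0.074, -0.14 and 0.39, positive in mice 1, 2, 3 and 5. On the 5 Cy3 arrays the medians were -0.14, 0.0015, 0.32, -0.16 and 0.020 for astrocyte and 0.0050, 0.11, 0.18, 0.25 and 0.22 for oligodendrocyte genes. Here the difference was -0.15, -0.11, 0.14, -0.41 and -0.20, positive only on the mouse 3 array. On that array 16 of 18 astrocyte genes were positive, against 53.9% of all genes, and the median over all genes was 0.082. The median dye term was -0.026 for astrocyte genes (9 positive, 9 negative) and -0.12 for oligodendrocyte genes (6 positive, 8 negative), against -0.051 over all genes (3883 positive, 4827 negative). Further lists of the same cell types, described below, had the reverse order. Their median dye term was -0.13 for further astrocyte genes (5 positive, 18 negative). It was -0.048 for further oligodendrocyte and myelin genes (6 positive, 7 negative). Where the 4 other Cy3 arrays shared a sign, which was so for 28 of 46 member probes, the mouse 3 array had the opposite sign in 14 (50%), against 54.5% over all probes. This held for 9 of 17 astrocyte and 5 of 11 oligodendrocyte probes. In the fit of the other 9 arrays, with the dye as covariate, the median value was -0.028 for astrocyte and 0.027 for oligodendrocyte genes.

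**Figure D4:**
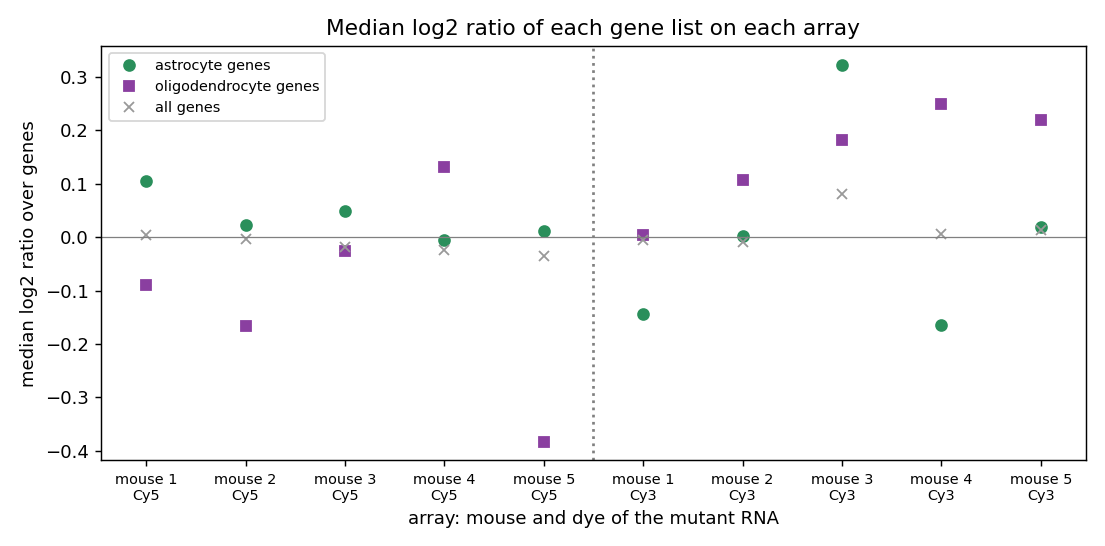
Median log2 ratio (vertical axis) over the tested astrocyte genes (green circles), oligodendrocyte genes (purple squares) and all genes (grey crosses) on each of the 10 arrays, with the mutant in Cy5 left of the dotted line and in Cy3 right of it. Circles lie above squares on 4 of 5 Cy5 arrays and below them on 4 of 5 Cy3 arrays, with mouse 4 in Cy5 and mouse 3 in Cy3 as the exceptions.

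Both lists had a lower median spread between mice than all probes, and the astrocyte probes a lower one than the oligodendrocyte probes. These are descriptions with no test. The order of the lists turned without mouse 4, at 0.221 for astrocyte and 0.211 for oligodendrocyte probes, and after scaling of the arrays to a common spread the medians were close, at 0.196 and 0.199. The median SD of the pair mean over mice was 0.194 for the 26 astrocyte probes and 0.241 for the 20 oligodendrocyte probes, against 0.340 for all probes (quartiles 0.216 and 0.543). Of the astrocyte probes 22 of 26, and of the oligodendrocyte probes 15 of 20, lay below the median of all probes, where 50% of all probes lie. Glul (2516), Sparcl1 and Slc1a3 had the smallest SDs of the astrocyte genes, at 0.072, 0.081 and 0.093. Mbp (16330), Cnp and Gjb1 had the smallest of the oligodendrocyte genes, at 0.057, 0.068 and 0.17. At the other end stood Mt3 (19136), Sox9 (1477) and Mlc1, at 0.54, 0.51 and 0.39, and Septin4 (16647), Apod and Mag, at 0.72, 0.58 and 0.56.

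Within the Cy5 arrays the median SD was 0.216 for astrocyte, 0.302 for oligodendrocyte and 0.353 for all probes. Within the Cy3 arrays it was 0.341, 0.402 and 0.554 in the same order, and without the mouse 3 array 0.182, 0.253 and 0.377. The astrocyte list had the smallest of the 3 medians each time. Missing values moved with the spread. Probes with values on all 10 arrays had a median SD between mice of 0.317 and tested probes with 8 or 9 values one of 0.478, and 72.7% of astrocyte and 76% of oligodendrocyte probes had all 10 values, against 66.7% of all probes. Among probes with all 10 values the median SD remained 0.194 for the 24 astrocyte and 0.243 for the 19 oligodendrocyte probes. The part of signal intensity in these spreads was not tested, since no intensity was used here.

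**Figure D5:**
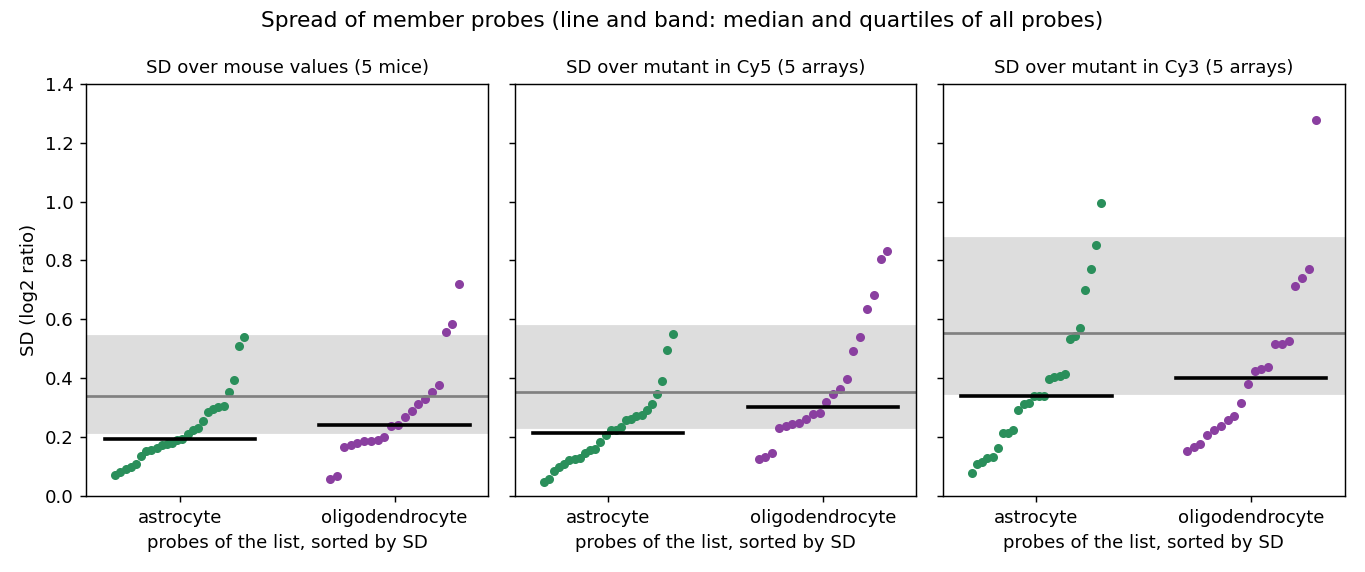
Standard deviation of the log2 ratio for each tested member probe, sorted by size, over the pair means of the mice (left), the Cy5 arrays (middle) and the Cy3 arrays (right). Green points are astrocyte and purple points oligodendrocyte probes, black bars their medians (0.194 and 0.241 on the left), and the grey line and band the median and quartiles of all tested probes.

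Co-variation of the genes of a list over the arrays turned on the mouse 3 array. The median Pearson correlation between pairs of the 18 astrocyte genes over 10 arrays was 0.22 as deposited and 0.20 with the mean of each dye orientation removed, against 0.010 and 0.0084 over all genes. Over 9 arrays, without the mouse 3 Cy3 array, it was -0.094 and -0.0067. For the 13 oligodendrocyte genes with values on every array it was 0.039 and -0.0039 over 10 arrays, and 0.099 and 0.050 over 9. The co-variation of the astrocyte genes therefore rested on that array, on which nearly all of them were positive.

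The 12 member probes outside the test include the best known marker of reactive astrocytes. Gfap, the intermediate filament of astrocytes, had values on 6 arrays, 0.45 in mouse 1, -1.36 in mouse 3 and 1.04 in mouse 5 with the mutant in Cy5 and -0.20 in mouse 1, -2.48 in mouse 2 and -4.74 in mouse 5 with it in Cy3. Only mice 1 and 5 had both arrays, with pair means of 0.13 and -1.85, so no level of Gfap against the pool can be given. Olig1 and Olig2, transcription factors of the oligodendrocyte lineage, had 6 and 5 values. Those of Olig2 were 2.32 in mouse 3 and 1.52 in mouse 5 in Cy5 and -0.82 in mouse 2, 0.29 in mouse 3 and 0.33 in mouse 5 in Cy3. Those of Olig1 were 2.87 in mouse 1, 1.73 in mouse 4 and -3.34 in mouse 5 in Cy5 and -4.38 in mouse 3, -0.11 in mouse 4 and -16.54 in mouse 5 in Cy3, of which the last is the single extreme value that its array repeats at many probes. Aldh1l1, Atp1b2 and Mal had no tested probe either, with 2 to 7 values per probe. Of these 12 probes, 4 held such an extreme value, and the other values of the 12 ranged from -5.86 to 4.08.

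The other cell types of the brain were followed with 9 further lists. No gene of them passed the test of the pair mean (0 in every list), and the single genes named are given by the pair mean of the probe with the smallest p. The 13 further genes of oligodendrocytes and myelin had a median of 0.0075 (8 positive, 5 negative), and Hapln2, a link protein of the nodes of Ranvier, read -0.16 ± 0.15 (SD, n = 4). The 23 further astrocyte genes had a median of 0.0059 (12 positive, 11 negative). The 10 reactive astrocyte genes had a median of -0.055 (4 positive, 6 negative). Of these, Aspg had the smallest p and read -0.60 ± 1.11 (SD, n = 5), with a dye term of 0.18. Vim, an intermediate filament that rises in reactive astrocytes, came next. It read 0.19 ± 0.36 (SD, n = 5), with a dye term of -0.41. The 7 genes of oligodendrocyte precursors (3 positive, 4 negative) had a median of -0.020, and the 17 of cholesterol and myelin lipid synthesis (9 positive, 8 negative) one of 0.0071. The 16 neuron markers (7 positive, 9 negative) and the 9 microglia markers (4 positive, 5 negative) had medians of -0.024 and -0.025, and the 9 markers of endothelium and pericytes (6 positive, 3 negative) one of 0.067. The 4 choroid plexus and ependyma markers were all negative, with a median of -0.31, and 3 of their 6 probes had unadjusted p under 0.05, against 3.73% of all probes. Ttr, the thyroid hormone carrier made by the choroid plexus, read -0.41 ± 0.18 (SD, n = 5) on probe 19, with an adjusted limma p of 0.911. The dye term of that probe was 0.34. With the tested probes of a gene averaged, the dye terms of the 4 genes were lower, from -0.54 to 0.078 (1 positive, 3 negative). The part of tissue composition in the values of the members was not tested.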

How the data were processed

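Brain RNA of 5 Cin85-/- mice was set against a wildtype pool on 10 two-colour arrays, each mouse once in either dye. RNA was extracted with a column kit, reverse transcribed and labelled indirectly, per the labels' protocols. The authors deposited log2 ratios. The scanner, the background correction, the normalization and the direction of the ratios were not given in the sources used here. Intensities were not analysed here, so the signal above background cannot be stated, and precision is limited by the number of mice. Probe names are those of the platform annotation, some of them possibly outdated, and promoters came from RefSeq (GRCm38.p6), where 28 of 38 member genes had an entry.

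Each array was centred on its median, and the 2 arrays of a mouse counted as 1 replicate. The 5 pair means, and the 5 dye terms, were compared with 0 by limma 3.58.1 (lmFit, eBayes; R 4.3.3), fitted over the 16939 probes for which at least 4 mice had both arrays, and adjusted by the Benjamini-Hochberg method at a threshold of 0.05. The fit was tested on simulated data. With 1 pool as the control, the spread between wildtype mice is not part of the test. Gene values are means of their tested probes, and probes that disagree are named. Extreme ratios above 16 in size, a single repeated value per array, were kept. Array values are given for Aqp4, Glul and Cnp, for the members of each list with the smallest p or the largest or smallest spread, for defining genes and families, and for members with several tested probes. The members, the lists and this rule were chosen with earlier results of these data known. Alternatives were the centring, the scaling, all arrays with the mouse as a block, the other reading, each orientation alone, other filters, extreme ratios as missing, the gene as unit, the most complete probe of each gene, the median over mice and each mouse left out.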

Additional observations from a re-analysis of the deposited data

Results flagged for a closer look

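In 9 of 48 sets of mouse values, 1 mouse lay far from the others by Dixon's test, which by chance flags about 1 in 20. The sets were 43 member probes with 5 mice, 3 with 4 mice and the 2 list medians. Over all probes, 11.8% had such a mouse. Mouse 3 was the outlying mouse, with a positive value, for 6 of 26 astrocyte probes (23.1%) and 0 of 20 oligodendrocyte probes, against 5.11% of all probes, and no difference between these shares was tested. Its pair mean was 0.28 for Slc1a2 (16768), 0.36 for Aldoc, 0.78 for Mlc1, 0.64 for Mt1, 0.31 for Acsl6 and 1.02 for Sox9 (1477). The Cy3 array of that mouse stood apart over all probes, and its part in these values was not tested. Mouse 1 was the outlying mouse for Slc1a2 (9613), which has no value for mouse 3, at 0.24, and for Septin4 (16647), at -1.73. Mouse 5 was for Pllp (2837), at -0.52.

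For 7 member probes every array with the mutant in Cy5 had one sign and every array with it in Cy3 the other, against 7.33% of all probes, and no test was made for this choice of probes. Their dye terms were -0.32 for Slc1a2 (10594), -0.38 for Slc1a3, -0.45 for Apoe, -0.45 for Mt2 (13607), -0.36 for Gjb1, and -0.25 and -0.31 for Car2 (3989 and 10451). All 7 were negative in Cy5. Under 1 reading of the columns these are dye bias, and under the other they are differences from the pool, and the sources used here do not settle which.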

How the results depend on the processing

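No alternative listed here gave a pair mean or dye term past the threshold, among the members or over all probes. The dye coefficient of single arrays is the exception, with the arrays of a mouse as separate samples: 9 of 46 member probes passed on 10 arrays and 23 on 9, against 12.1% and 25.5% of all probes. Apart from that fit, the smallest adjusted limma p over all probes was 0.064, with the mutant in Cy5 alone. There 5034 of all 16939 probes and 16 of 46 member probes had unadjusted limma p under 0.05. For the other reading of the columns, these counts were 4679 of 16939 (27.6%) and 16 of 46. For the mutant in Cy3 alone they were 2187 of 16939 and 7 of 46. No difference between members and all probes was tested. Summary values set against an alternative stayed within the spread between mice, or within 1.5 times the count, in 113 cases and moved further in 3. The oligodendrocyte median moved to -0.12 for the other reading and to -0.13 with the mutant in Cy5 alone, and the median spread of the astrocyte probes became 0.34 on the Cy3 arrays alone. The other reading turned the sign of 19 of 46 member probes, Cy5 alone of 16 and Cy3 alone of 21. When each mouse was left out in turn, the astrocyte median ranged from -0.029 to 0.065, the oligodendrocyte median from -0.080 to 0.044 and their difference from -0.034 to 0.14. The median spread ranged from 0.138 to 0.221 for astrocyte and from 0.173 to 0.276 for oligodendrocyte probes, and the astrocyte value was the higher one without mouse 4 only, at 0.221 against 0.211. Leaving out mouse 3 turned the sign of 12 member probes, and leaving out its Cy3 array alone, an alternative chosen after seeing the data, of 14. Without mouse 1, 2, 4 or 5 the sign turned for 3, 2, 8 and 9 member probes. The shares over all probes are not given for these counts of turned signs, so they do not set the members apart. The cause was not tested.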
